A study of Mus musculus with 4 samples.

Results

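Coenzyme Q biosynthesis genes encode the enzymes and helper proteins that make ubiquinone, and 10 of them were described here, of 53465 genes in the files and 18157 that were tested. They were chosen by name: Pdss1 and Pdss2, which make the tail; Coq2, which joins tail and ring; Coq3, Coq5, Coq6 and Coq7, which modify the ring; and Coq4, Coq8a and Coq9, which assist. All 10 passed the filter on low counts, with between 338 and 13548 reads per gene and library. RNA came from the ventricles of mice at postnatal day 1 and was sequenced as 4 polyA-selected libraries, 2 per group. Control mice were Ctnnb1floxP/floxP; alphaMHC-Cre-, and the knockout-labelled mice were Ctnnb1floxP/floxP; alphaMHC-Cre+, both from crosses of alphaMHC-Cre mice with floxed mice. Both groups thus carried the floxed alleles of Ctnnb1, the gene of β-catenin, and differed in the Cre transgene, whose promoter is active in cardiomyocytes. Other cells of the ventricle were not targeted, and an effect of Cre itself cannot be told apart from one of the deletion. The labels do not say that the libraries come from separate animals, so p-values measure only the spread between these samples, which may be technical.

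Coenzyme Q is a lipid of the inner mitochondrial membrane that carries electrons from complexes I and II, and from several smaller dehydrogenases, to complex III. Its ring comes from tyrosine and its tail from the mevalonate pathway, which also feeds cholesterol and dolichol synthesis. After the tail is attached, Coq proteins assembled on the matrix face of the membrane modify the ring step by step. The heart depends on oxidative metabolism and is rich in coenzyme Q, and by its title the series is about cardiac energetics and mitochondria.

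Gene counts per library were between 34027143 and 45651797. Ctnnb1, the targeted gene, was 409 and 434 in controls 1 and 2, against 527 and 460 in knockout-labelled 1 and 2, in CPM (reads of a gene relative to library size, scaled by the trimmed mean of M values, TMM). Its log2 difference was 0.23 ± 0.20 (SE, adjusted p = 0.532 in edgeR). Its count covers the whole gene and all cell types, so it does not check the labels. The summed level of 8 cardiomyocyte markers was 55213 to 60599 CPM in the controls and 73872 to 80204 CPM in the other group, with 4 of the 8 above both controls (26.5% of all genes were) and 4 overlapping. The markers did not all share the sign of their sum: the group mean of Myh7 was 0.448 of control and that of Ryr2 0.837. The median log2 fold change of the 8, which ran from -1.16 to 1.12, was 0.28 with TMM. That is the same to 2 decimals as that of the 10 biosynthesis genes given below. With library totals alone both medians were 0.04. A factor per library shifts all genes nearly alike, so this second match follows from the first. With trends with GC content and length removed from each library, the medians differed, at 0.53 for the 8 markers and 0.29 for the 10 genes. Control 1 stood apart in 8 T-cell genes, whose summed level was 283 CPM there, 5.72 CPM in control 2 and at most 1.67 CPM in the knockout-labelled libraries. Reads with several alignments made up 19.4% and 21.0% of those counted in the controls, against 23.9% and 29.7% in the knockout-labelled pair. The share of mitochondrially encoded genes among gene counts was 5.25% and 7.65% against 10.2% and 14.4%. The part of these differences in the results below was not tested. In bulk RNA, fewer cells of a type and less RNA per cell cannot be told apart.

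The biosynthesis genes differed among themselves in size and sign, and 0 of the 10 passed the main test. By their group means, Pdss1, Coq5 and Coq7 were 2.38, 1.90 and 1.59 times as high in the knockout-labelled libraries, Coq8a was at 0.699 of the control level, and Pdss2, Coq2, Coq4 and Coq9 differed by at most 0.16 on the log2 scale. Over all genes, edgeR (quasi-likelihood test, p-values adjusted by Benjamini-Hochberg) called 0 of the 10 at an adjusted p under 0.05, as it called 0.011% of all genes higher and 0.0% lower. Their adjusted p-values ran from 0.0925 to 0.894 in edgeR. At an unadjusted p under 0.05, 4 were higher (Pdss1, Coq5, Coq6 and Coq7) and 1 was lower (Coq8a), against 11.8% and 11.2% of all genes tested. DESeq2 called 3 of the 10 higher (Pdss1, Coq5 and Coq7) and 0 lower, against 5.58% and 4.43% of all genes. limma-voom called 0 of the 10 and 0.0% of all genes in either direction.

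The groups were separate with the knockout-labelled pair on top for 7 of the 10 genes and below for 2, and the groups overlapped for Pdss2. Over all genes tested the shares were 26.5% above and 29.7% below. With scaling by library totals alone the counts were 4 above (Pdss1, Coq5, Coq6 and Coq7) and 2 below (Coq2 and Coq8a). With trends with GC content and length removed from each library they were 6 above and 1 below. Pdss1, Coq5, Coq6 and Coq7 lay above and Coq8a below under each of these 3 ways of scaling. With TMM and at least 1 CPM required in every library, 5 were above and 2 below, and Coq4 and Coq9 overlapped as well. The median log2 fold change of the 10 genes was 0.28, and that of all genes tested was -0.02. With library totals alone the median of all genes shifted to -0.26 and that of the 10 to 0.04, which left the 10 genes 0.30 above all genes, as with TMM. A factor per library shifts all genes nearly alike, so this match was fixed in advance. In edgeR without each library in turn, the difference ran from 0.18 without control 2 to 0.45 without knockout-labelled 1.

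**Figure D1:**
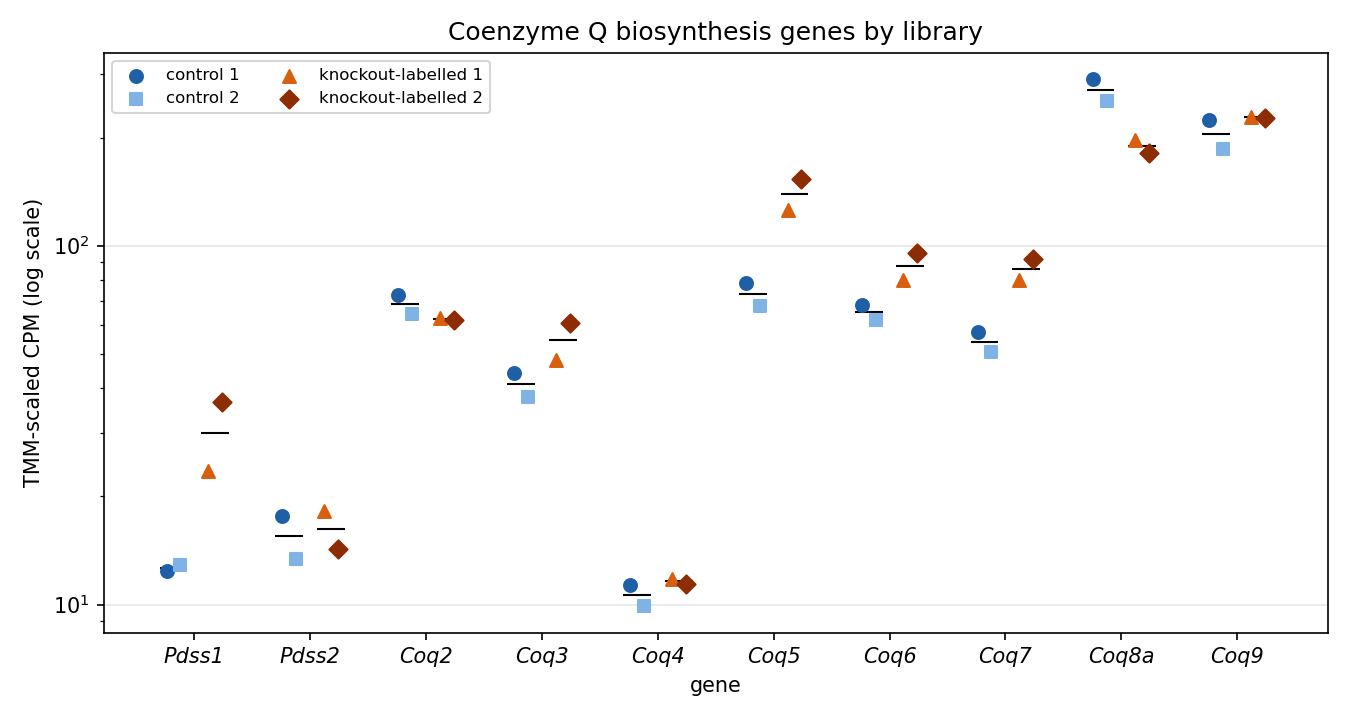
TMM-scaled CPM on a log axis for the 10 genes in the 4 libraries, with a black line at each group mean of 2 libraries. The knockout-labelled points sit clear above the controls for Pdss1, Coq5 and Coq7 and clear below for Coq8a, while those of Pdss2 intermingle. For Coq6 they also sit above, by less than the distance between the knockout-labelled points.

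Levels between genes were compared as CPM per kilobase of annotated exon, the union of all exons of a gene, since reads were counted per gene. This union can be far longer than a transcript. For Coq7 it is 6434 bases, against 1215 in the longest coding transcript, and for Pdss1 4248 against 1642. The order, shares and sizes of ratios per kb given below depend on this choice of length. In the controls Coq9 was highest at 66.9 ± 8.68 CPM per kb, followed by Coq8a at 51.3 ± 5.14 (SD, n = 2 each). A middle group held Coq2 at 26.1 ± 2.27, Coq5 at 24.2 ± 2.49 and Coq6 at 20.7 ± 1.39 CPM per kb, whose neighbours overlapped between Coq2 and Coq5 but not between Coq5 and Coq6. Coq3 at 13.7 ± 1.50 and Coq7 at 8.37 ± 0.752 CPM per kb came next. Coq4, Pdss1 and Pdss2 were lowest, at 3.12 ± 0.298, 2.98 ± 0.0835 and 2.60 ± 0.50 CPM per kb, and did not differ beyond their spread. The spread of levels was thus wide within 1 pathway: 96.3% of the tested protein-coding genes lay below Coq9 in the controls, and 38.3% lay below Pdss2.

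The order changed in the knockout-labelled libraries, where Coq5 stood at 46.0 ± 6.58 CPM per kb and Coq8a at 35.8 ± 2.11, and Pdss1 at 7.08 ± 2.2 was above Coq4 at 3.41 ± 0.0713. Each gene's share of the summed level of the 10 does not depend on a factor per library, though it does on GC content and length offsets, which differ between genes. Coq8a held 23.2% and 23.4% of that sum in the controls, against 15.3% and 13.1% in knockout-labelled 1 and 2. Coq5 held 11% in each control and 17.0% and 19.3% in the knockout-labelled pair. Coq9, the largest part, held 30.9%, 29.8%, 30.7% and 28.3% in controls 1 and 2 and knockout-labelled 1 and 2. The sum itself was 236 and 204 CPM per kb in the controls, against 244 and 262 in the knockout-labelled pair.

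The tail is made by a prenyl diphosphate synthase of 2 different subunits, Pdss1 and Pdss2. Pdss1 (ENSMUSG00000026784, forward strand of chromosome 2 in GRCm38, 22895522 to 22940266) measured 12.4 and 12.9 CPM in controls 1 and 2, against 23.6 and 36.6 in knockout-labelled 1 and 2. The controls were nearly equal, and both knockout-labelled libraries were well above them, the second more than the first. The log2 difference was 1.25 ± 0.26 (SE, adjusted p = 0.0925 in edgeR, 0.00122 in DESeq2), with a 95% interval of 0.62 to 1.87. Without knockout-labelled 2 it was 0.91, with GC content and length trends removed 0.94 and with library totals alone 0.99. Pdss2 (chromosome 10, 43221486 to 43464882) measured 17.6 and 13.4 CPM in controls 1 and 2, against 18.2 and 14.3 in knockout-labelled 1 and 2. Its groups overlapped, and the log2 difference of 0.07 ± 0.24 (SE, adjusted p = 0.894 in edgeR) had a 95% interval of -0.53 to 0.67 and turned to -0.16 with library totals alone. Ratios between genes were taken within each library, for pairs chosen after their values were seen. Like the shares, they depend on GC content and length offsets, which differ between genes. The ratio of Pdss1 to Pdss2 per kb was 0.988 and 1.35 in the controls, against 1.82 and 3.6 in the knockout-labelled pair. The ratio was above both controls in both knockout-labelled libraries, although control 2 lay closer to knockout-labelled 1 than the knockout-labelled libraries lay to each other. Pdss1 shares 194 exon bases with Abi1 on the opposite strand, and the use of strand in counting is not given, so its level is uncertain.

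To set these partner genes side by side, the bases before their start sites are shown, from RefSeq on GRCm38.p6. Windows of 250 bases before the annotated start were searched on both strands for CTTTGAT and CTTTGAA (binding motifs of TCF/LEF, the factors that β-catenin works with), AAGGTCA (ERR receptors), CCGGAAG (ETS factors such as GABPA), GCATGCGC (NRF1) and GGGCGG (GC box). Capitals mark a match to any of these, and each sequence is read 5′ to 3′ on the strand of its gene.
Pdss1, chr2:22895272-22895521, forward strand: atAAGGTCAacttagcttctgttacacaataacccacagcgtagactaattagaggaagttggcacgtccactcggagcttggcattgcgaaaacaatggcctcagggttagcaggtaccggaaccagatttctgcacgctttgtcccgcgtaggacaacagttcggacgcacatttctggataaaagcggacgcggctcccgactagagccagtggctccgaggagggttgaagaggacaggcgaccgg
Pdss2, chr10:43221236-43221485, forward strand: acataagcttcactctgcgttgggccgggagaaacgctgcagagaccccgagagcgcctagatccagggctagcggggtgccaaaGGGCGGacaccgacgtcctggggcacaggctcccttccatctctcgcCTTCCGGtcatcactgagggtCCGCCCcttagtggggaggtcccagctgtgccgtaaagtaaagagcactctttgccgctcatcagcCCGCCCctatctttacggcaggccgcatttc
The Pdss1 window held 1 ERR motif, starting at position -248 from the start site, and 0 of the others. The Pdss2 window held 1 ETS motif and 3 GC boxes. No such match, or its absence, shows binding or its lack.

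Of the 10 genes, 9 had a window in the RefSeq table, 11 windows in all, and Coq5 had none. Either TCF/LEF motif was in 0 of the 11 windows, against 3.21% (CTTTGAT) and 4.46% (CTTTGAA) of all 32851 windows of that length. The ERR motif was in 1 of 11 and in 4.08% of all, the ETS motif in 1 (6.91% of all) and the NRF1 motif in 1, that of Coq2 (2.26% of all). The GC box was in 5 of 11 windows, those of Coq3, Coq6, Coq8a, Coq9 and Pdss2, and in 32.7% of all. The matches in Coq3, Coq6 and Coq9 lay past the first window base that belongs to an annotated exon of the gene. The windows of Coq3 among the 11 overlapped each other.

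Coq2 attaches the tail to the ring and thereby commits both to coenzyme Q. It lies on the reverse strand of chromosome 5 (100654723 to 100675140) and measured 72.8 and 64.4 CPM in controls 1 and 2, against 63.0 and 62.2 in knockout-labelled 1 and 2. Both knockout-labelled values were below both controls, but the one of knockout-labelled 1 lay close to that of control 2. The log2 difference was -0.13 ± 0.15 (SE, adjusted p = 0.648 in edgeR), with a 95% interval of -0.51 to 0.25. A processed pseudogene, Gm6728, matches the Coq2 transcript at 96.5% identity over 1006 bases and had between 12 and 26 counts. Reads that fit both may have been left out of the Coq2 count.

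Coq3 and Coq5 methylate the ring, Coq3 on oxygen and Coq5 on carbon. Coq5 (ENSMUSG00000041733, forward strand of chromosome 5, 115279666 to 115296972) measured 78.7 and 68.0 CPM in controls 1 and 2, against 125 and 154 in knockout-labelled 1 and 2. The groups were far apart relative to the spread within each. Its log2 difference was 0.93 ± 0.19 (SE, adjusted p = 0.0925 in edgeR, 0.00148 in DESeq2), with a 95% interval of 0.47 to 1.38, and 0.99 with GC content and length trends removed. Coq3 (chromosome 4, 21879673 to 21912162) measured 44.3 and 37.9 CPM in controls 1 and 2, against 48.1 and 61.0 in knockout-labelled 1 and 2. Knockout-labelled 1 was only just above control 1, and the log2 difference of 0.41 ± 0.19 (SE, adjusted p = 0.256 in edgeR) was 0.19 with GC content and length trends removed. The ratio of Coq5 to Coq3 per kb was 1.76 and 1.77 in the controls, against 2.58 and 2.49 in the knockout-labelled pair. This ratio was almost the same within each group.

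Coq6 and Coq7 are hydroxylases of the ring, Coq6 a flavoprotein and Coq7 a di-iron enzyme that acts near the end of the pathway. Coq7 (ENSMUSG00000030652, reverse strand of chromosome 7, 118509659 to 118533356) measured 57.3 and 50.5 CPM in controls 1 and 2, against 80.2 and 91.7 in knockout-labelled 1 and 2. The log2 difference was 0.67 ± 0.17 (SE, adjusted p = 0.109 in edgeR, 0.0216 in DESeq2), with a 95% interval of 0.27 to 1.08. Coq6 (chromosome 12, 84361657 to 84373796) measured 68.3 and 62.1 CPM in controls 1 and 2, against 80.3 and 95.3 in knockout-labelled 1 and 2, a log2 difference of 0.43 ± 0.17 (SE, adjusted p = 0.203 in edgeR, 0.191 in DESeq2). Neither hydroxylase had overlapping groups, and in both knockout-labelled 2 was the higher of its pair. With library totals alone the values were 0.43 for Coq7 and 0.18 for Coq6. The ratio of Coq7 to Coq6 per kb was 0.410 and 0.397 in the controls, against 0.487 and 0.470 in the knockout-labelled pair.

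Coq9 binds lipid and partners Coq7, while Coq4 is needed for the assembly of the Coq proteins. Coq9 (chromosome 8, 94838321 to 94854895) measured 223 and 186 CPM in controls 1 and 2, against 228 and 227 in knockout-labelled 1 and 2. The gap between the 2 controls was larger than that between control 1 and either knockout-labelled library, and the log2 difference was 0.16 ± 0.18 (SE, adjusted p = 0.653 in edgeR; 95% interval -0.30 to 0.61). Coq4 (chromosome 2, 29787493 to 29797935) measured 11.3 and 9.89 CPM in controls 1 and 2, against 11.8 and 11.4 in knockout-labelled 1 and 2, a log2 difference of 0.13 ± 0.23 (SE, adjusted p = 0.769 in edgeR; 95% interval -0.42 to 0.68). With library totals alone both values changed sign, to -0.08 for Coq9 and -0.11 for Coq4. Coq4 shares 921 exon bases with Trub2 on the opposite strand, and the use of strand in counting is not given in the sources used here, so its level is uncertain. The ratio of Coq7 to Coq9 per kb, transcripts whose proteins form a complex, was 0.122 and 0.129 in the controls, against 0.167 and 0.192 in the knockout-labelled pair.

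Coq8a, an atypical kinase-like ATPase that supports the Coq assembly and whose human counterpart is mutated in a form of ataxia with coenzyme Q deficiency, had the most negative value of the 10. Coq8a (ENSMUSG00000026489, reverse strand of chromosome 1, 180165238 to 180199602) measured 291 and 252 CPM in controls 1 and 2, against 197 and 182 in knockout-labelled 1 and 2. Both knockout-labelled libraries were below both controls by more than the gap within either group. The log2 difference was -0.52 ± 0.18 (SE, adjusted p = 0.173 in edgeR, 0.104 in DESeq2), with a 95% interval of -0.97 to -0.07. It was -0.29 with GC content and length trends removed and -0.75 with library totals alone. Its exons share 366 bases with Cdc42bpa on the opposite strand. As for Coq4, the use of strand in counting is not given, so the level of Coq8a is uncertain too. The ratio of Coq5 to Coq8a per kb was 0.472 and 0.470 in the controls, against 1.11 and 1.48 in the knockout-labelled pair.

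The window before the upstream one of the Coq8a starts in the table is shown beside that of Coq7, as genes with values of opposite sign. The Coq8a sequence is cut to 195 bases, those outside annotated exons of the gene. It lies within the annotated span of Coq8a, while the Coq7 window lies just outside that of Coq7.
Coq8a, chr1:180196076-180196270, reverse strand: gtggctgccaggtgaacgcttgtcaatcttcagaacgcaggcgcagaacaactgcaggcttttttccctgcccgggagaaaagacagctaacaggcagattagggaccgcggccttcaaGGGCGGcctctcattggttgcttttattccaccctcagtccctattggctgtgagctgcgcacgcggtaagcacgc
Coq7, chr7:118533357-118533606, reverse strand: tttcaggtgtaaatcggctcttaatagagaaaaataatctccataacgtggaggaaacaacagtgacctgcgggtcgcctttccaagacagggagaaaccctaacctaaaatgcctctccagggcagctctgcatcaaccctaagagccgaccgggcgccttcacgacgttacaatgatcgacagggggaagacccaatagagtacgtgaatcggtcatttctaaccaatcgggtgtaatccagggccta
The Coq8a window held 1 GC box, starting at position -131, and the Coq7 window held 0 of the motifs searched.

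**Figure D2:**
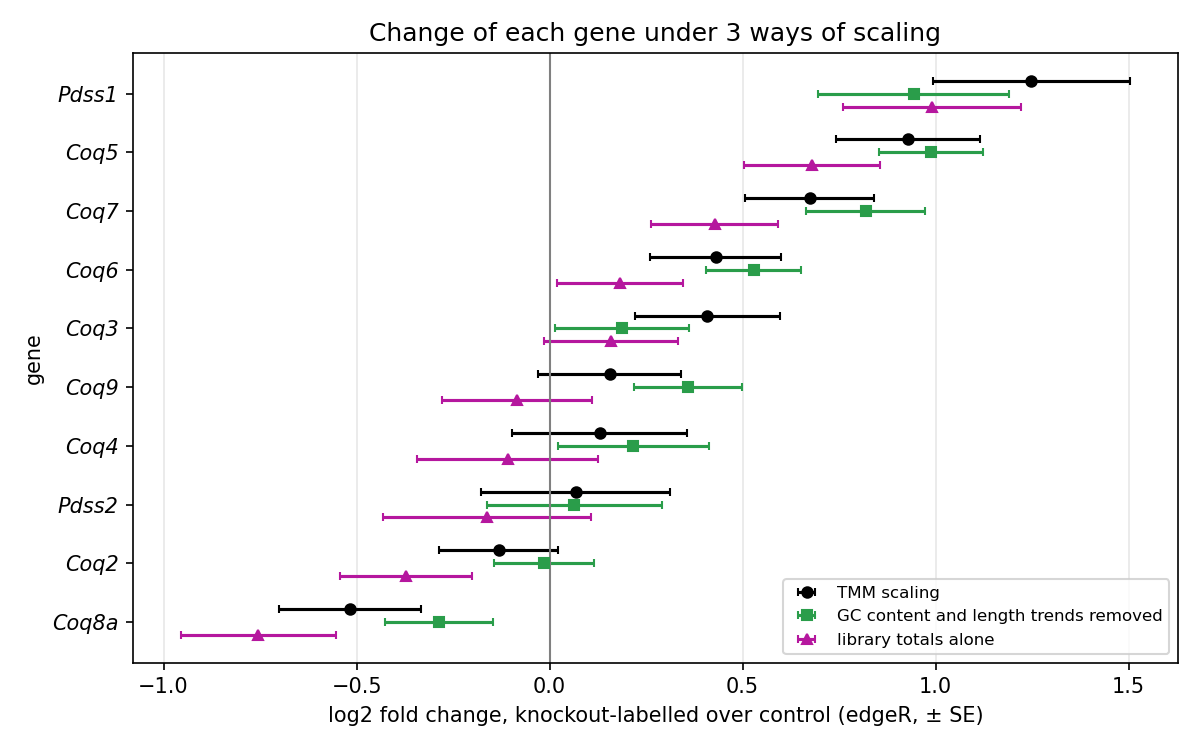
Log2 fold change of knockout-labelled over control (edgeR, bars ± SE, 2 libraries per group) for the 10 genes under TMM scaling, with GC content and length trends removed, and with library totals alone. Pdss1, Coq5, Coq6 and Coq7 are above 0 and Coq8a below 0 under all 3, while Pdss2, Coq4 and Coq9 cross 0 with library totals.

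**Figure D3:**
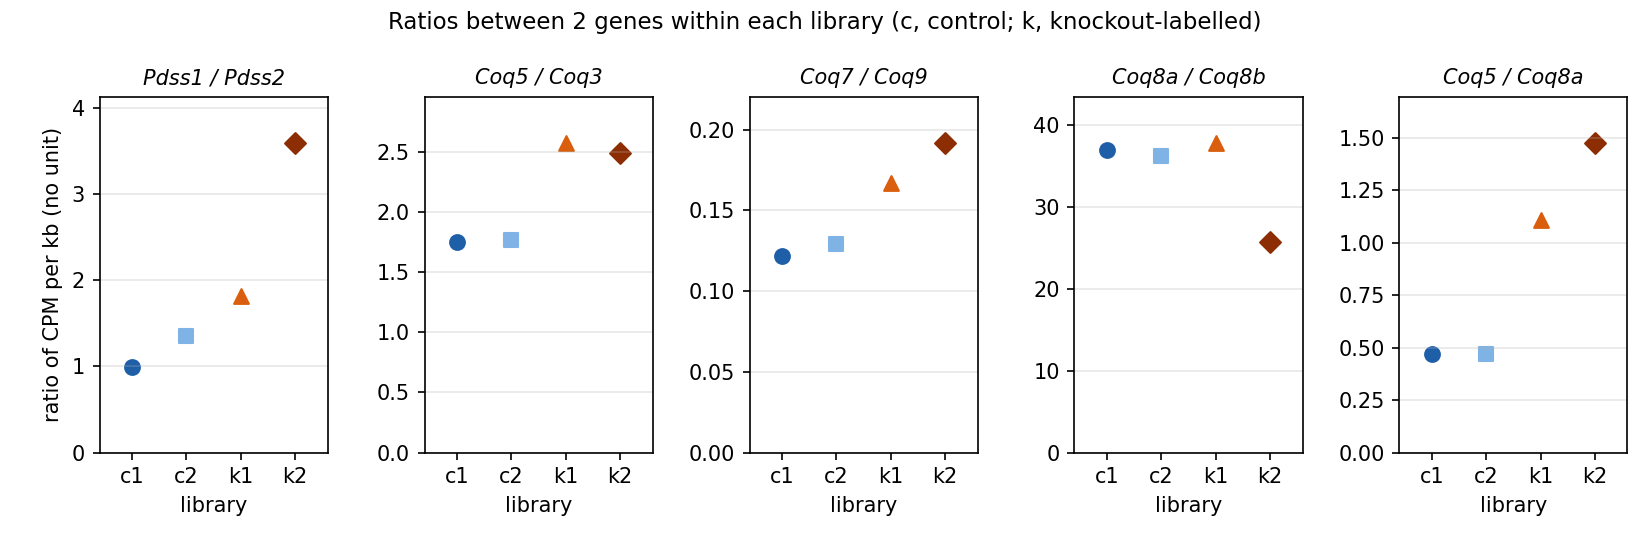
Ratio of CPM per kb between 2 genes within each library, which a factor per library does not change, though GC content and length offsets can. Points are single libraries, and the knockout-labelled points lie above the control points in 4 of the 5 pairs shown, the exception being Coq8a to Coq8b. The pairs were chosen after their values were seen, and in these 4 the first gene has the higher log2 fold change. The count is therefore no test.

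Of 10 other genes of coenzyme Q synthesis, handling and reduction, the median log2 fold change was 0.18, with 7 positive with TMM, and -0.06 with 4 positive with library totals alone. edgeR called 0 of them and DESeq2 called 1 higher, Coq10b, against the 5.58% of all genes. Coq8b, the close relative of Coq8a, measured 8.30 and 7.34 CPM in controls 1 and 2, against 5.50 and 7.44 in knockout-labelled 1 and 2, with overlapping groups and a log2 difference of -0.27 ± 0.28 (SE, adjusted p = 0.60 in edgeR). Per kb of exon, Coq8a exceeded Coq8b by 36.9 and 36.3 times in the controls, against 37.9 and 25.8 times in the knockout-labelled pair, so Coq8a was the predominant transcript of the pair in every library.

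Coq10a and Coq10b encode lipid-binding proteins that hold coenzyme Q. Coq10b measured 6.45 and 11.8 CPM in controls 1 and 2, against 16.2 and 23.9 in knockout-labelled 1 and 2, a log2 difference of 1.14 ± 0.36 (SE, adjusted p = 0.148 in edgeR, 0.0314 in DESeq2) that was 0.77 without control 1. Its groups did not overlap, although the controls differed from each other by more than control 2 from knockout-labelled 1. Coq10a measured 48.9 and 48.4 CPM in controls 1 and 2, against 44.8 and 69.2 in knockout-labelled 1 and 2, which straddled the controls (log2 difference 0.23 ± 0.23, SE, adjusted p = 0.596 in edgeR). Stard7, a lipid transfer protein linked to the export of coenzyme Q from mitochondria, measured 215 and 197 CPM in controls 1 and 2, against 301 and 244 in knockout-labelled 1 and 2 (log2 difference 0.40 ± 0.20, SE, adjusted p = 0.275 in edgeR).

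The mevalonate pathway supplies the isoprenoid units of the tail. Its 9 genes examined had a median log2 fold change of 0.39, and the sign was positive for 9 with TMM, 8 with GC content and length trends removed and 7 with library totals alone. Of all genes tested, 48.5% were positive with TMM. With library totals alone the median was 0.14. Both medians are the value of Fdps, named after its values were seen. Fdps had 31 to 33 counts per library, and 5 other genes hold near-identical stretches of its transcript, so both medians are uncertain. The number called was 0 in edgeR and 3 higher in DESeq2, against 5.58% of all genes. Both knockout-labelled values were above both controls for 6 of the 9, against 26.5% of all genes. Hmgcs1, the synthase at the entry of the pathway, measured 40.9 and 45.1 CPM in controls 1 and 2, against 94.6 and 67.9 in knockout-labelled 1 and 2, a log2 difference of 0.92 ± 0.21 (SE, adjusted p = 0.0976 in edgeR, 0.00557 in DESeq2). In contrast to Pdss1, Coq5 and Coq7, it was higher in knockout-labelled 1 than in knockout-labelled 2. Idi1, the isomerase of the isoprenoid units, measured 1.27 and 1.47 CPM in controls 1 and 2, against 8.19 and 2.67 in knockout-labelled 1 and 2. Its log2 difference of 1.99 ± 0.57 (SE, adjusted p = 0.132 in edgeR) was 1.02 without knockout-labelled 1. A processed pseudogene, Gm13502, is identical to Idi1 over 684 bases, so its level is uncertain.

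Of 3 enzymes on branches that compete for the same precursors, edgeR and DESeq2 called 0, and the median log2 fold change was 0.30 with TMM and 0.06 with library totals alone. Nus1, a subunit of the enzyme that makes the dolichol precursor, measured 33.1 and 41.0 CPM in controls 1 and 2, against 48.3 and 50.6 in knockout-labelled 1 and 2 (log2 difference 0.42 ± 0.17, SE, adjusted p = 0.221 in edgeR). Fdft1, squalene synthase, measured 36.6 and 32.8 CPM in controls 1 and 2, against 45.3 and 40.1 in knockout-labelled 1 and 2 (log2 difference 0.30 ± 0.16, SE, adjusted p = 0.325 in edgeR), and shares 774 bases with Ctsb transcripts. With library totals alone the values were 0.17 for Nus1 and 0.06 for Fdft1. Dhdds, the partner subunit of Nus1, had overlapping groups and a log2 difference of -0.07 ± 0.17 (SE, adjusted p = 0.823 in edgeR), and is named after its values were seen.

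Of 10 genes for enzymes that pass electrons to coenzyme Q, complex I apart, edgeR called 0, and DESeq2 called 2 higher and 1 lower, against 5.58% and 4.43% of all genes. Their median log2 fold change was 0.39 with TMM (7 positive, 3 negative) and 0.15 with library totals alone (6 positive, 4 negative). Sdhb, the iron-sulphur subunit of complex II, measured 529 and 408 CPM in controls 1 and 2, against 682 and 1112 in knockout-labelled 1 and 2, a log2 difference of 0.94 ± 0.31 (SE, adjusted p = 0.155 in edgeR, 0.0223 in DESeq2) that was 0.55 without knockout-labelled 2. Sdhd, a membrane anchor of complex II, measured 433 and 390 CPM in controls 1 and 2, against 593 and 634 in knockout-labelled 1 and 2 (log2 difference 0.57 ± 0.20, SE, adjusted p = 0.167 in edgeR, 0.0308 in DESeq2). With GC content and length trends removed the value of Sdhd was 0.25. The gene called lower was Chdh, choline dehydrogenase, named after its values were seen. It was at 7.14 CPM in control 1, the library with the T-cell transcripts, at 0.429 CPM in control 2, against 0.564 and 0.304 in knockout-labelled 1 and 2, and its log2 fold change of -3.09 was 0.04 without control 1.

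**Figure D4:**
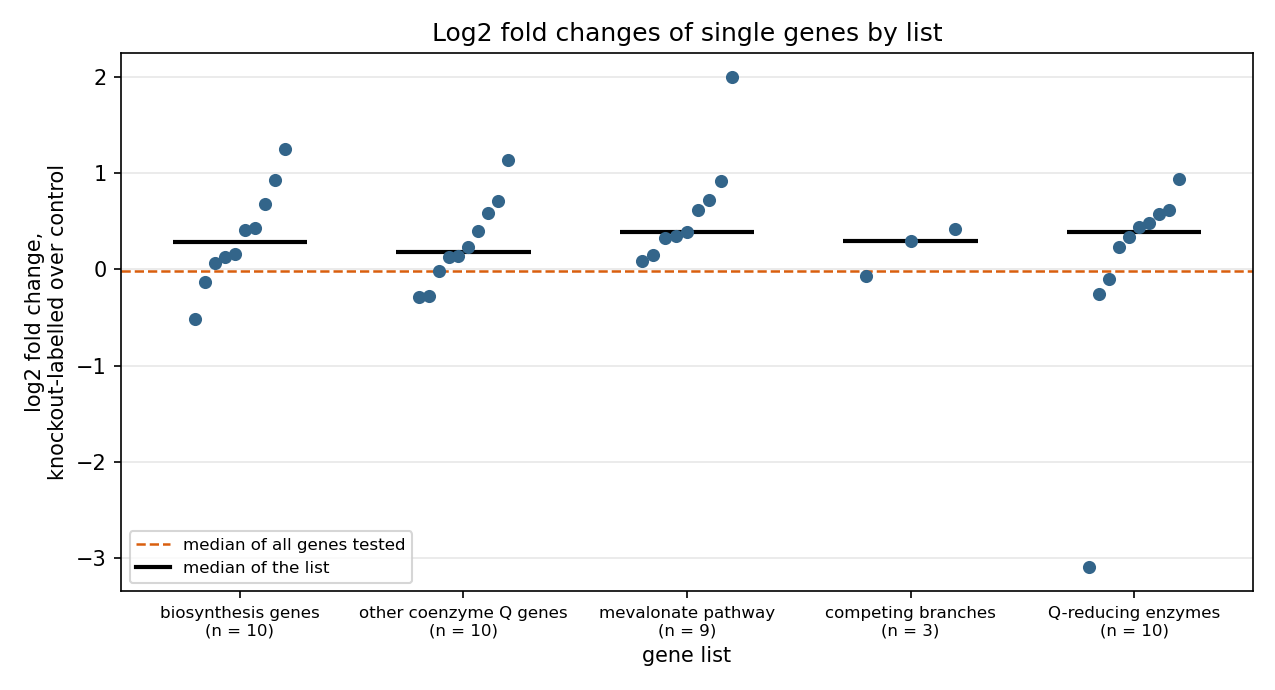
Log2 fold changes of knockout-labelled over control (edgeR, TMM scaling) for single genes of 5 lists, with the median of each list as a black line and that of all genes tested as a dashed line. The medians of the lists lie between 0.18 and 0.39, and the point near -3 is Chdh.

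Without control 1, the library with T-cell transcripts, the log2 fold changes were 1.22 for Pdss1, 1.04 for Coq5, 0.77 for Coq7 and -0.41 for Coq8a. DESeq2 called 0 of the 10 genes without control 1 and 0 without control 2, fits in which the control group is a single library. Its log2 fold changes without control 2 were 1.30 for Pdss1, 0.85 for Coq5 and 0.61 for Coq7, against 1.27, 0.95 and 0.70 with all libraries. Among all genes it then called 0.691% higher and 0.352% lower without control 1, and 1.05% and 1.72% without control 2. It called 2 of the 10 higher without knockout-labelled 2 (4.16% of all higher and 4.22% lower). Without knockout-labelled 1 it called 4 higher and 1 lower (8.9% and 7.05% of all). edgeR called 0 of the 10 in each of these 4 cases, and of all genes at most 0.0466% higher, and 0.156% lower without control 2 and 0.031% lower without knockout-labelled 1. With no filter on low counts edgeR called 2 of the 10 higher, Pdss1 and Coq5, against 0.978% of all genes higher and 0.753% lower. It called 0 of the 10 with at least 1 CPM required in every library (0.0153% of all higher) and 0 with the replicate number as a block (0.0496% of all in each direction). With the replicate numbers crossed it called 2 of the 10 higher (2.76% of all higher and 2.42% lower). The authors' deposited table gave log2 fold changes of 1.27, 0.95, 0.70 and -0.50 for Pdss1, Coq5, Coq7 and Coq8a, with adjusted p-values of 0.00117, 0.00146, 0.0213 and 0.102.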

How the data were processed

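Polyadenylated RNA from 2 control and 2 knockout-labelled ventricle samples was sequenced with a stranded kit. The submitters' processing notes name the build GRCm38, the aligner STAR 2.5.3a and the counter HTSeq 0.6.1, and the deposited counts are whole numbers without scaling. The sources used here give neither strand use in counting nor the annotation release. The series table repeats these counts and adds the authors' log2 fold changes and p-values, for which the notes name DESeq2 1.18. Its other 14 columns, 4 of them normalized values per sample, were not used.

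Genes were matched by identifier to GENCODE vM21 (53360 of 53465). Counts, without the 5 HTSeq summary rows, went into edgeR 4.0.16 under R 4.3.3: filterByExpr defaults, TMM scaling (factors 1.08, 1.10, 0.972 and 0.869), the quasi-likelihood test and Benjamini-Hochberg adjustment over 18157 genes, at a threshold of 0.05. SE is the log2 fold change over the square root of F. Alternatives were DESeq2 1.42.0, limma-voom (limma 3.58.1), other scalings and filters, a replicate block, GC content and length offsets (loess, 99.9% of genes) and leaving out each library. A count of 0 allows up to 0.0882 CPM. Replicates differed beyond counting error (chi-square per degree of freedom 50.2 and 119). The fits were tested on simulated counts, drawn independently for each gene and library. The spread of each gene in them was the estimate of edgeR, a setting that may favour edgeR. There, false calls made up a larger share of the calls of DESeq2 than of those of edgeR. Depth and scaling apart, the simulated counts lacked the differences between libraries described above, so they do not decide between the methods here. With 2 against 2 libraries an exact permutation test cannot go below p = 0.333, so ratios and shares have no test.

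The 10 genes and the other lists were chosen with earlier results of these data known. Named genes are Ctnnb1, the 10, Coq8b, Coq10a, Coq10b and, from each other list, members past the threshold and the 2 with the smallest p at a mean of at least 1 CPM; a gene that the rule also names is not reported here. Lists of fibroblast, endothelial, macrophage and erythroid markers had median log2 fold changes of 0.03, -0.19, -0.62 and -0.38. The erythroid marker Ahsp was not matched.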

Additional observations from a re-analysis of the deposited data

How the results depend on the processing

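Pdss1, Coq3, Coq5, Coq6 and Coq7 were positive and Coq2 and Coq8a negative in all 19 alternatives, while Pdss2 was positive in 14 and Coq4 and Coq9 in 18. edgeR called 0 of the 10 under every alternative except 2. Those called were 2 with no filter on low counts (Pdss1 and Coq5, adjusted p = 0.0386 and 0.0462 in edgeR) and 2 with the crossed block below. The number of genes called over all genes was 2 in edgeR, 1706 in DESeq2, 0 in limma-voom, 554 with no filter on low counts and 0 to 30 in edgeR without each library in turn. DESeq2 called 3 of the 10 with all libraries. Chosen after seeing the data, DESeq2 without each library in turn called 157, 521, 2454 and 1158 genes without control 1, control 2, knockout-labelled 1 and knockout-labelled 2, and 0 to 5 of the 10. The median log2 fold change of the 10 was 0.038 with library totals alone, 0.18 to 0.40 in edgeR and 0.19 to 0.42 in DESeq2 without each library in turn (0.39 in DESeq2 without knockout-labelled 1). A lone library left in a group is assumed to vary like the other group. The labels share replicate numbers, but nothing says that they pair the libraries, and the deviations of same-numbered libraries were weakly and negatively correlated (-0.116 across 18157 genes). With the replicate block edgeR called 18 genes, 0 of them among the 10, and 0 with the replicate block and GC content and length trends removed. With the crossed pairing, added after seeing the data, it called 941 genes and 2 of the 10. The lowest count among the 10 genes was 338, far above the limit that a count of 0 allows, and each group had 2 libraries.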
